A study of Mus musculus with 24 samples.

Results

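The transcripts of 10 subunits of Polycomb Repressive Complex 2 (PRC2) were followed by RNA-seq in mouse embryonic stem cells (ESCs) treated with siRNAs. These were control siRNAs or siRNAs against Rsl24d1, which encodes a maturation factor of the large ribosomal subunit. The 10 genes were listed by name as members of the complex, with earlier results of these data known. All of them were found among the 54242 gene symbols of the deposited table. They are Ezh1, Ezh2, Eed, Suz12, Rbbp4 and Rbbp7 of the core, and Jarid2, Aebp2, Mtf2 and Phf19 among the accessory subunits. The data are 24 libraries of the CGR8 line, an established line of pluripotent mouse cells, with 3 independent samples in each of 8 groups. The groups combine a pool of non-targeting siRNAs (si-CTL) or a pool against Rsl24d1 (si-Rsl24d1), the absence or presence of doxycycline that induces an RSL24D1 rescue protein, and the day. Day 0 cells were kept in serum with leukemia inhibitory factor (LIF) after transfection, for 72 h by the protocols (the labels of single samples read 48 h), and day 4 cells had 4 days of 10 nM retinoic acid (RA) in serum. The rescue transgene was carried by a puromycin-selected CGR8 population, and the label of the cells without rescue reads empty vector. Whether LIF was present together with RA is stated differently by the study's sources.

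PRC2 is the enzyme complex that methylates lysine 27 of histone H3 (H3K27me3), a mark of silenced developmental genes in ESCs. EZH2 and its paralog EZH1 are the alternative catalytic subunits, EED binds the methyl mark and stimulates the enzyme, SUZ12 is the scaffold, and RBBP4 and RBBP7 are interchangeable histone-binding subunits. Accessory subunits bind in mutually exclusive sets: MTF2, PHF19 or PHF1 define the form called PRC2.1, and JARID2 with AEBP2 the form called PRC2.2.

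The values are log2(TPM + 1), where the TPM is a gene's share of all transcripts after division by transcript length, scaled to a sum of 1000000 in each library, so levels of different genes can be set against each other. All 10 genes passed the filter for testing, a mean of at least 0.5 over the 24 libraries, together with 16447 genes in all. Groups were compared with limma, a linear model fitted over all tested genes, and genes with an adjusted p below 0.01 were counted as upregulated or downregulated, with changes of more than 1.8-fold counted apart. These values keep no read numbers, so sequencing depth is unknown, and differences in TPM cannot tell fewer cells that express a gene from less RNA per cell.

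The siRNA acted at day 0. Rsl24d1 itself stood at 7.22, 7.14 and 7.10 in si-CTL cells without rescue and at 5.23, 5.28 and 5.07 in si-Rsl24d1 cells (log2 fold change -1.95 with a standard error, SE, of 0.07, limma adjusted p = 3.2e-14), which left 25.3% of the control TPM. With rescue it was at 6.70, 6.60 and 6.94 in si-Rsl24d1 cells, or 75.8% of that control TPM, and still lower than in rescued si-CTL cells (-0.50, SE 0.07, limma adjusted p = 2.2e-05), so the rescue was partial at the transcript level. The symbol sums endogenous and ectopic transcripts. At day 4 no siRNA difference of Rsl24d1 passed as deposited. Without rescue Rsl24d1 was at 6.60, 6.67 and 6.61 in si-CTL and at 6.50, 6.61 and 6.65 in si-Rsl24d1 cells (log2 fold change -0.04, SE 0.07). With median of ratios scaling it was lower in the latter (-0.20, limma adjusted p = 3.2e-03). With rescue the siRNA difference was 0.15 (limma adjusted p = 0.19). Day 4 si-Rsl24d1 cells had more Rsl24d1 with rescue than without (0.45, SE 0.07, limma adjusted p = 3.2e-04). All 8 pluripotency markers examined were expressed in all 8 groups. Their summed TPM was 3957 to 5447 at day 0 and 5959 to 7021 at day 4. Such a sum follows the most abundant markers and does not give the direction of single ones. The authors report that RA strongly lowered many pluripotency markers in si-CTL cells. The 6 primitive endoderm markers summed to 3.81 to 7.84 TPM at day 0 and 14.8 to 37.2 at day 4. The 5 fibroblast markers summed to 14.9 to 34.1 and 50.8 to 184, and the 5 mesoderm markers to 22.8 to 29.7 and 9.01 to 21.7. Sums of trophoblast and neural progenitor markers overlapped between the days.

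A property of the libraries touches several results. The median deviation of long transcripts (upper quartile, from 4448 bases) minus that of short ones (lower quartile, up to 1678 bases) differed between libraries from -0.23 to 0.23 on the log2 scale. Libraries of one group could differ too, from 0.00 to 0.23 in day 0 si-CTL cells without rescue and from -0.11 to 0.22 in day 4 si-Rsl24d1 cells without rescue. Many PRC2 transcripts are long: Jarid2 has 8353 bases in its longest annotated transcript, Aebp2 5932, Rbbp4 4663, Suz12 4373 and Ezh1 4207, against 2787 for Ezh2, 2244 for Rbbp7 and 2067 for Eed. The deviations of Jarid2 and Suz12 from their group means went along with this length tilt over the 24 libraries (Pearson r = 0.96 and 0.91), and those of Ezh1 the least (r = 0.43). These coefficients share the libraries and the common scaling and are given as a description. Limma comparisons of the subunits below are therefore also given, where it changes a call, with the trend on transcript length removed from every library. The removal was added after the data had been seen. It was not applied to the ratios of TPM, the further partners or the target genes.

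In day 0 si-CTL cells the subunits spanned a wide range of levels. Rbbp7 (267 ± 10.1 TPM, SD, n = 3), Rbbp4 (265 ± 16.8 TPM) and Eed (243 ± 8.73 TPM) were the most abundant, and their libraries overlapped from one gene to the next in this order. Mtf2 (191 ± 13.7 TPM) and Suz12 (184 ± 16.6 TPM) followed and overlapped with each other, as did Jarid2 (139 ± 16.1 TPM) and Ezh2 (129 ± 7.31 TPM). The 3 lowest were apart from each other in every library: Aebp2 (46.0 ± 6.22 TPM), Ezh1 (20.0 ± 0.756 TPM) and Phf19 (6.50 ± 1.59 TPM). Ezh1, the catalytic paralog with the weaker methyltransferase activity, had 0.156 ± 0.0128 times the TPM of Ezh2 in these cells.

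**Figure D1:**
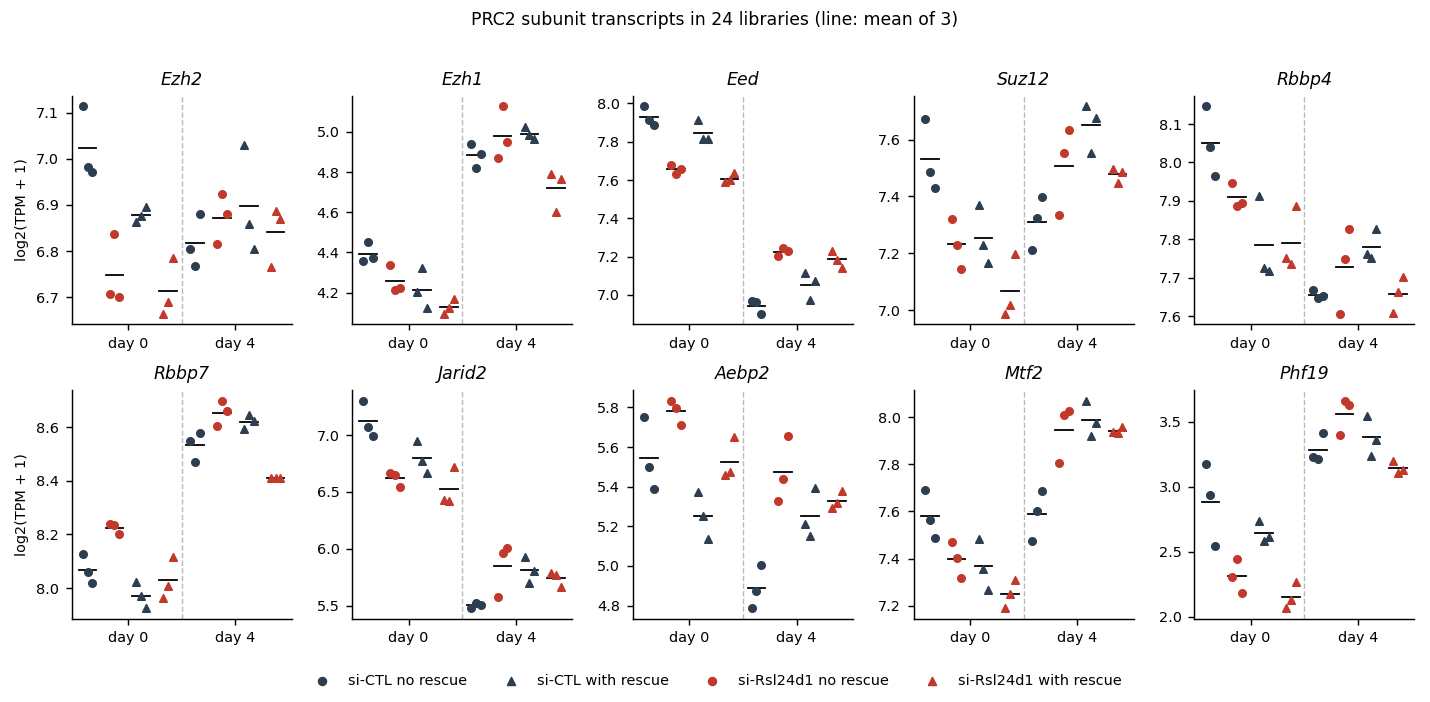
Levels of the 10 PRC2 subunit transcripts in 24 libraries as log2(TPM + 1), with day 0 groups left and day 4 groups right of the dashed line, 1 point per library and a line at the mean of 3; the vertical axes differ between genes and do not start at 0. Ezh1, Rbbp7, Eed and Jarid2 do not overlap between the 12 libraries of day 0 and the 12 of day 4, and at day 0 without rescue the si-Rsl24d1 circles of Eed, Ezh2, Suz12, Jarid2 and Phf19 lie below the si-CTL circles.

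The first comparison asked how the subunit transcripts changed on Rsl24d1 depletion in self-renewing ESCs. Without rescue, 5 of the 10 subunits were downregulated (Ezh2, Eed, Suz12, Jarid2 and Phf19) and Rbbp7 was upregulated, where 30.4% of all tested genes passed, 16.1% lower and 14.3% higher. None of the 6 changed by more than 1.8-fold, as 4.18% of all tested genes did. For 9 of the 10 the libraries of both groups did not overlap, as for 51.1% of all tested genes. The median log2 fold change of the 10 subunits was -0.23, against -0.01 over all tested genes.

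Among the core subunits, Eed changed most clearly, from 7.99, 7.91 and 7.89 in si-CTL to 7.68, 7.63 and 7.66 in si-Rsl24d1 cells, with no overlap (log2 fold change -0.27, SE 0.04, limma adjusted p = 8.7e-06). Ezh2 went from 7.11, 6.98 and 6.97 to 6.71, 6.84 and 6.70 (-0.27, SE 0.06, limma adjusted p = 6.3e-04). Suz12 went from 7.67, 7.49 and 7.43 to 7.32, 7.23 and 7.14 (-0.30, SE 0.08, limma adjusted p = 5.4e-03). The 3 genes that make up the catalytic heart of the complex were thus at 82.6%, 82.6% and 81.1% of the control TPM for Ezh2, Eed and Suz12. The call of Suz12 was lost without si-CTL replicate 1, the si-CTL library with the highest values of all 3 genes (-0.23, limma adjusted p = 0.041), and without si-Rsl24d1 replicate 2 or 3 (adjusted p = 0.016 and 0.033). Those of Eed and Ezh2 held without each of the 6 libraries.

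Their paralogs gave a different picture. Ezh1 was at 4.36, 4.45 and 4.37 in si-CTL and at 4.34, 4.21 and 4.22 in si-Rsl24d1 cells, a difference of -0.14 (SE 0.07) that did not pass (limma adjusted p = 0.11). Rbbp4 differed by -0.14 (SE 0.06, limma adjusted p = 0.062) and passed once the length trend was removed (-0.15, limma adjusted p = 0.0011). Rbbp7 rose from 8.13, 8.06 and 8.02 to 8.24, 8.24 and 8.20 (0.16, SE 0.04, limma adjusted p = 3.3e-03), a call that was lost when si-CTL replicate 2 or 3 or si-Rsl24d1 replicate 1 or 2 was left out (0.13 to 0.15, adjusted p = 0.013 to 0.023).

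Both accessory subunits that passed had larger changes than any core subunit. Jarid2, which recruits PRC2 and stimulates it, fell from 7.30, 7.07 and 6.99 to 6.67, 6.65 and 6.54, that is, to 70.2% of the control TPM (log2 fold change -0.50, SE 0.11, limma adjusted p = 7.6e-04). Phf19, a Tudor domain subunit of PRC2.1, fell from 3.17, 2.93 and 2.55 to 2.30, 2.44 and 2.19, to 61.2% (-0.57, SE 0.12, limma adjusted p = 7.6e-04). Its si-CTL libraries were the most scattered of the 10 genes, and neither gene overlapped between the groups. Mtf2, the PRC2.1 subunit with the highest level, differed by -0.18 (SE 0.07, limma adjusted p = 0.040), and Aebp2, a zinc finger subunit of PRC2.2, by 0.24 (SE 0.09, limma adjusted p = 0.055). Both passed with the length trend removed, Mtf2 at -0.18 (limma adjusted p = 7.8e-04) and Aebp2 at 0.21 (limma adjusted p = 0.0080). Rbbp4 and Mtf2 passed with median of ratios scaling too (-0.14 and -0.18, adjusted p = 4.9e-03 and 1.9e-03). In this comparison long and short transcripts shifted alike, with a difference of 0.02 between their medians. Some marker sums moved along with the siRNA. The summed TPM of the 8 pluripotency markers was 4955 to 5113 with si-CTL against 3957 to 4005 with si-Rsl24d1. That of 5 trophoblast markers was 32.2 to 36.0 against 46.8 to 51.2, and that of 5 fibroblast markers 27 to 34.1 against 19.4 to 20.0. The sums of primitive endoderm, neural progenitor and mesoderm markers overlapped between the 2 groups. The part of marker genes in these results was not tested.

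The genes lie on 8 chromosomes of GRCm38 by gencode vM21, and the core gene Eed spans 89954654 to 89980983 on chromosome 7, Ezh2 47530139 to 47595341 on chromosome 6, Suz12 79993106 to 80034123 on chromosome 11, and Jarid2 44729474 to 44921643 on chromosome 13. To see whether the subunits that fell together at day 0 share promoter letters, RefSeq promoters (GRCm38.p6, 250 bases before to 50 after each start site) were searched on both strands. All 10 genes matched by symbol, with 14 start sites. The E2F motif, taken as TTTCCCGC, TTTCGCGC, TTTGCCGC or TTTGGCGC, occurred in promoters of Ezh2, Suz12 and Phf19 and in 2.26% of all 32851 promoter windows. The matches are shown 5′ to 3′ on the strand of the gene with the motif in capitals, because these are 3 of the 5 subunits that fell at day 0:
Ezh2, chr6:47595009-47595038: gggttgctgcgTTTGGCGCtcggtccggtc
Suz12, chr11:79992876-79992905: cgacccctcatTTTCCCGCgaattcagttc
Phf19, chr2:34914166-34914195: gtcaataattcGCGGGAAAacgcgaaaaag
Counted from the RefSeq start site, with negative values upstream, the motif begins at 3 in Ezh2 and at -219 in Suz12. In Phf19 it begins at -208, on the opposite strand. The whole Ezh2 window (47594981 to 47595280) lies inside the gencode span of the gene, so RefSeq and gencode place its start differently. Eed and Jarid2, which fell as well, held none of these letters in their windows. No promoter window of the 10 genes held the retinoic acid receptor half-site AGGTCA or GGGTCA, which occurred in 27.5% of all windows. Each E2F word holds a CpG, and the matching windows are rich in it, with 31 CpG in Ezh2, 41 in Suz12 and 38 in Phf19. Over all windows the median was 7, and 43.5% held at least 10. The 2.26% is therefore not the share among windows with as many CpG, which was not determined. A match describes letters and not a bound site.

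The second question was whether the rescue protein changed this. With doxycycline in both arms, si-Rsl24d1 against si-CTL cells had 2 subunits downregulated, Eed (-0.24, SE 0.04, limma adjusted p = 1.2e-04) and Phf19 (-0.49, SE 0.12, limma adjusted p = 5.6e-03), where 13.7% of all tested genes passed, 5.64% lower. Eed was at 7.91, 7.81 and 7.81 in the rescued si-CTL cells and at 7.59, 7.60 and 7.64 in the rescued si-Rsl24d1 cells, again without overlap. The call of Phf19 held only when si-Rsl24d1 replicate 3 was the library left out, and was lost without any of the other 5 (limma adjusted p = 0.012 to 0.028). Jarid2 (-0.27), Suz12 (-0.19) and Ezh2 (-0.17) were lower without passing (limma adjusted p = 0.076, 0.11 and 0.043). They passed with the length trend removed, at -0.32, -0.21 and -0.18 (adjusted p = 5.6e-06, 8.3e-04 and 6.2e-03), and so did Aebp2, which was higher, at 0.23 (adjusted p = 6.8e-03).

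The difference between the siRNA effects with and without rescue was tested directly, and it passed for 0 of the 10 subunits, against 2.09% of all tested genes. None of the 10 had an unadjusted p below 0.05 in this test as deposited. With the length trend removed none passed either, and Jarid2 (0.22, limma adjusted p = 0.022) and Rbbp7 (-0.13, adjusted p = 0.040) came nearest. The differences ran from -0.10 (Rbbp7, SE 0.06) to 0.23 (Jarid2, SE 0.15), with Eed at 0.04 (SE 0.05). By contrast Rsl24d1 itself differed by 1.45 (SE 0.10, limma adjusted p = 1.3e-07).

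Within the si-Rsl24d1 cells, none of the 5 subunits that the siRNA had lowered passed as higher with rescue. As deposited, all 10 log2 fold changes of rescued against unrescued cells were negative (4 of them, those of Ezh2, Eed, Rbbp4 and Jarid2, were above 0 with median of ratios scaling, none called), and 1 passed, Rbbp7 at -0.20 (SE 0.04, limma adjusted p = 1.4e-03), where 15.3% of tested genes passed, 12.2% lower. Eed differed by -0.05 (SE 0.04), Ezh2 by -0.04 (SE 0.06) and Jarid2 by -0.10 (SE 0.11). With the length trend removed the direction of Jarid2 turned, to 0.15, just short of the threshold (limma adjusted p = 0.01003), and Ezh2 was at 0.05 (adjusted p = 0.53). Doxycycline in si-CTL cells also went with lower values of all 10 subunits, from -0.08 for Eed to -0.33 for Jarid2 (3 of them above 0 with median of ratios scaling, Ezh2, Eed and Rbbp7). With the length trend removed these values shrank to -0.01 for Eed and -0.06 for Jarid2, and the lowest was that of Suz12 (-0.10, limma adjusted p = 0.21). Of the 10, 0 passed in limma and 9 had an unadjusted p below 0.05, and 2 of all tested genes passed (0.0122%). In both rescue comparisons at day 0 the libraries with doxycycline had relatively less of the long transcripts (difference of medians -0.24 in each), and the median of all tested genes was below 0 (-0.11 and -0.12). With the scaling set by the median of ratios, which takes this shift out, Rbbp7 no longer passed in si-Rsl24d1 cells (-0.07, limma adjusted p = 0.090).

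**Figure D2:**
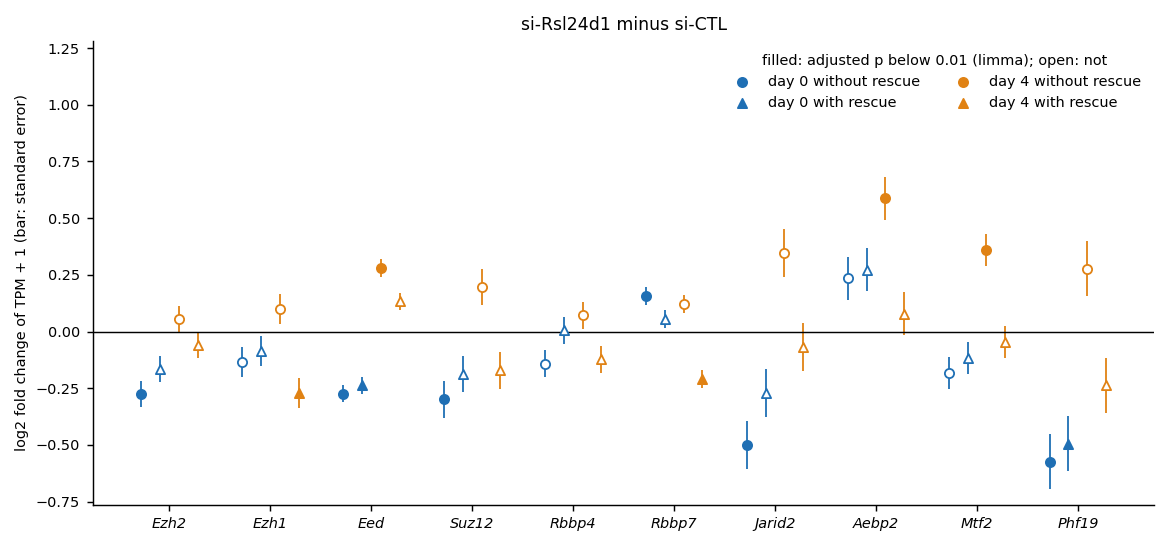
Effect of the siRNA on the 10 subunit transcripts, as log2 fold change of TPM + 1 of si-Rsl24d1 over si-CTL cells, with standard errors from limma; blue is day 0, orange day 4, circles are without and triangles with rescue, and filled symbols have an adjusted p below 0.01. The blue symbols of Eed, Jarid2 and Phf19 lie below 0 with and without rescue, whereas the orange circles of all 10 genes lie above 0 as deposited (6 of 10 with median of ratios scaling).

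The third comparison followed RA-induced differentiation in si-CTL cells. Between day 0 and day 4 without rescue, 8 of 10 subunits passed, 5 lower and 3 higher, where 60.9% of all tested genes passed, 36.7% lower and 24.1% higher. Jarid2 fell from 7.30, 7.07 and 6.99 to 5.48, 5.52 and 5.51, to 31.9% of its day 0 TPM (log2 fold change -1.62, SE 0.11, limma adjusted p = 6.6e-11). Eed fell from 7.99, 7.91 and 7.89 to 6.97, 6.96 and 6.90, to 50.3% (-0.98, SE 0.04, limma adjusted p = 2.6e-14). These 2 genes changed by more than 1.8-fold, as did 15.0% of all tested genes.

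Aebp2 (-0.66, limma adjusted p = 4.3e-06), Rbbp4 (-0.40, adjusted p = 6.7e-06) and Ezh2 (-0.21, adjusted p = 3.4e-03) fell less. Ezh1 rose from 4.36, 4.45 and 4.37 to 4.94, 4.82 and 4.89 (0.49, SE 0.07, limma adjusted p = 1.8e-06). Rbbp7 rose from 8.13, 8.06 and 8.02 to 8.55, 8.47 and 8.58 (0.46, SE 0.04, limma adjusted p = 3.2e-09). The histone-binding paralogs Rbbp4 and Rbbp7 thus moved in opposite directions. Phf19 rose by 0.40 (SE 0.12, limma adjusted p = 6.5e-03), but its day 0 libraries were scattered and the call was lost without any of 4 libraries, day 0 replicate 2 or 3 or day 4 replicate 1 or 3 (0.23 to 0.43, adjusted p = 0.011 to 0.065). Mtf2 (0.01, SE 0.07, but called at 0.15 and 0.18 with median of ratios scaling and with the length trend removed) and Suz12 (-0.22, SE 0.08, limma adjusted p = 0.021) did not pass.

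The 3 other pairs of day 4 and day 0 groups gave the same direction for 5 subunits. Ezh1, Rbbp7 and Phf19 were upregulated and Eed and Jarid2 downregulated in all 4 comparisons, which share no libraries. The background in the other 3 was 55.8% of tested genes in si-Rsl24d1 cells without rescue (29.4% higher, 26.4% lower), 59.2% in si-CTL cells with rescue (36.8% and 22.4%) and 58.1% in si-Rsl24d1 cells with rescue (32.4% and 25.8%). Jarid2 fell by 0.77, 0.98 and 0.78 and Eed fell by 0.43, 0.79 and 0.42 in these, in the same order. Ezh1 rose by 0.72, 0.78 and 0.59, and Rbbp7 by 0.43, 0.65 and 0.38. Over all 12 libraries of each day, Ezh1 ranged from 4.10 to 4.45 at day 0 (median 4.22) and from 4.60 to 5.13 at day 4 (median 4.91), and Jarid2 from 6.42 to 7.30 (median 6.70) and from 5.48 to 6.00 (median 5.73). Together with Eed and Rbbp7 they were the 4 subunits whose days did not overlap.

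The remaining subunits depended on the groups compared. Mtf2, at 0.01 in si-CTL cells without rescue, rose by 0.55, 0.62 and 0.69 in the other 3 comparisons, all called, and Suz12 by 0.28, 0.39 and 0.41. The call of Suz12 in si-Rsl24d1 cells without rescue was lost without day 0 or day 4 replicate 2 or 3 (0.21 to 0.28, limma adjusted p = 0.015 to 0.040). Ezh2 did not pass in these 3 (0.12, 0.02 and 0.13) and its fall in si-CTL cells without rescue was lost with the length trend removed (-0.11, limma adjusted p = 0.053), with median of ratios scaling (-0.06, adjusted p = 0.24) and without day 0 replicate 1 or day 4 replicate 1 or 2 (-0.20 to -0.16). Rbbp4 differed by -0.18, -0.00 and -0.13, and passed in all 3 with the length trend removed (-0.20, -0.20 and -0.24) and with median of ratios scaling (-0.20, -0.15 and -0.21). Aebp2 passed in si-Rsl24d1 cells without rescue (-0.31, SE 0.09, limma adjusted p = 8.2e-03), a call that was lost without any library but day 4 replicate 3. With rescue Aebp2 did not pass as deposited (-0.00 with si-CTL and -0.20 with si-Rsl24d1). With the length trend removed Aebp2 was called lower in all 4 day comparisons, at -0.44 and -0.33 without rescue and at -0.25 and -0.35 with it, si-CTL first (limma adjusted p at most 1.1e-03). Median of ratios scaling left the value in rescued si-CTL cells at -0.14 (adjusted p = 0.085) and the other 3 called. The difference between the medians of long and short transcripts was -0.29 in si-CTL cells without rescue, -0.01 in si-Rsl24d1 cells without rescue, and with rescue it was 0.22 in the former and 0.14 in the latter cells.

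**Figure D3:**
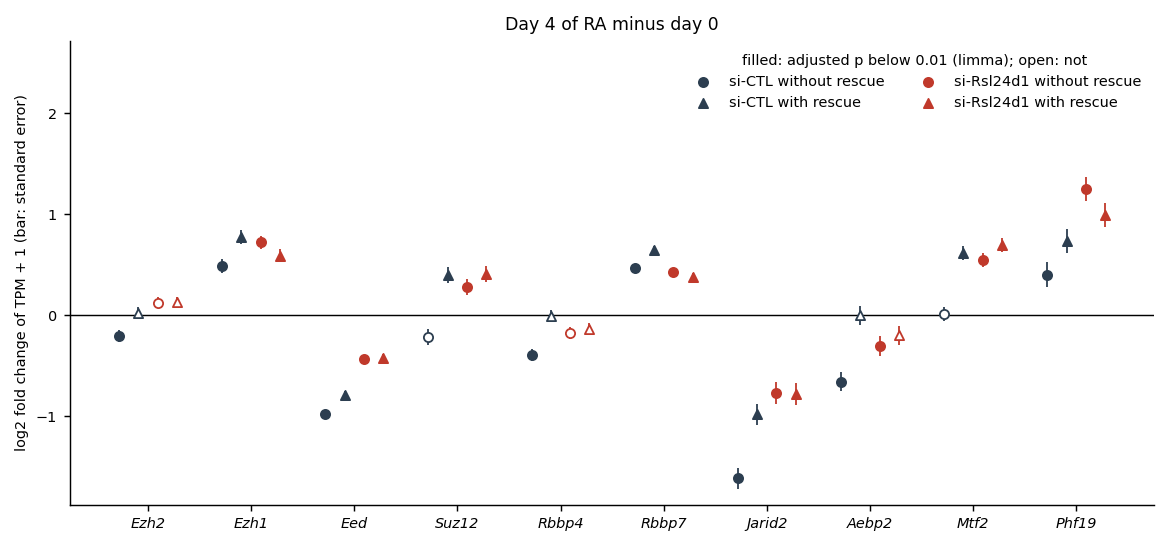
Change of the 10 subunit transcripts between day 0 and day 4 of RA, as log2 fold change of TPM + 1 with standard errors from limma, in si-CTL (dark) and si-Rsl24d1 (red) cells without (circles) and with rescue (triangles); filled symbols have an adjusted p below 0.01. Eed and Jarid2 lie below 0 and Ezh1, Rbbp7 and Phf19 above 0 in all 4 comparisons.

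These shifts were put into ratios of TPM within each library, as deposited. The length trend was not removed from the ratios, although the transcripts set against each other differ in length. The ratio of Ezh1 to Ezh2 lay between 0.139 and 0.186 in the 12 libraries of day 0 (median 0.159) and between 0.198 and 0.282 in those of day 4 (median 0.253), with no overlap. The day raised it by 0.66 on the log2 scale, on average over the 4 combinations of siRNA and rescue (0.72, 0.79, 0.63 and 0.49 in si-CTL without and with and si-Rsl24d1 without and with rescue). In an exact permutation test, two-sided, with the days exchanged within each combination, p was 1.3e-05, the smallest value the 160000 assignments can give (2.5e-05 adjusted over the 6 ratio tests run). The siRNA changed it by 0.01 (p = 0.86, exact permutation test), from -0.22 at day 4 with rescue to 0.13 at day 0 without.

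The ratio of Rbbp4 to Rbbp7 behaved in the same way with the opposite sign. It lay between 0.784 and 1.02 at day 0 (median 0.857) and between 0.4997 and 0.611 at day 4 (median 0.560), again without overlap. The mean change with the day was -0.66 on the log2 scale, with -0.86, -0.66, -0.61 and -0.52 in the 4 combinations (p = 1.3e-05, the smallest possible, exact permutation test, adjusted p = 2.5e-05). The siRNA changed it by -0.08 on average, which did not pass (p = 0.051, adjusted p = 0.077, exact permutation test). This mean hid unequal values. At day 0 without rescue the 3 si-CTL libraries were at 1.02, 0.986 and 0.965 and the 3 si-Rsl24d1 libraries between 0.784 and 0.817. As deposited, the other 3 differences were between -0.05 and 0.09 on the log2 scale. With the length trend removed, the siRNA effect at day 4 without rescue was -0.15 for Rbbp4 (limma adjusted p = 2.7e-03). That of Rbbp7 was 0.06 (limma adjusted p = 0.11). The ratio itself was not tested in this way.

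Between the accessory sets, the summed TPM of Jarid2 and Aebp2 over that of Mtf2, Phf19 and Phf1 fell from 0.802 to 0.959 at day 0 (median 0.859) to 0.335 to 0.405 at day 4 (median 0.359). The change was -1.36 and -1.30 on the log2 scale in si-CTL cells without and with rescue, and -1.17 and -1.26 in si-Rsl24d1 cells. The siRNA differences of this ratio lay between -0.09 and 0.10 in the 4 combinations. As a sum over several of the genes under study it is given without a p.

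**Figure D4:**
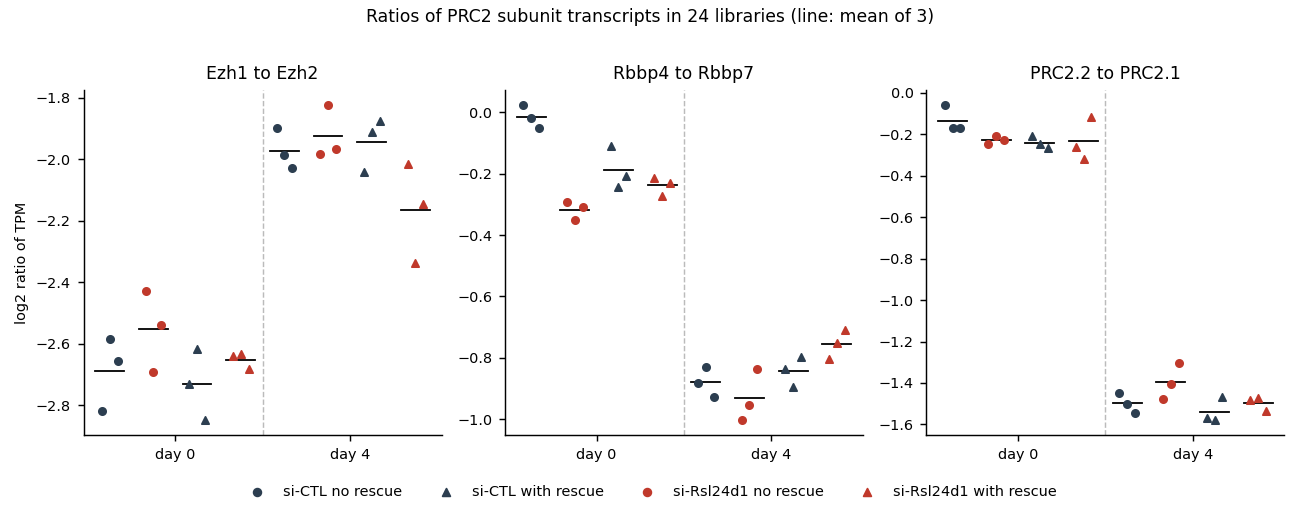
Log2 ratios of TPM in 24 libraries for Ezh1 to Ezh2, Rbbp4 to Rbbp7, and Jarid2 plus Aebp2 (PRC2.2) to Mtf2 plus Phf19 plus Phf1 (PRC2.1), with 1 point per library and a line at the mean of 3; the vertical axes differ. In each panel the 12 day 0 libraries and the 12 day 4 libraries lie apart, with Ezh1 to Ezh2 higher and both other ratios lower at day 4.

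The fourth comparison concerned the siRNA effect at day 4 without rescue. Compared with si-CTL, 3 subunits were upregulated in si-Rsl24d1 cells and 0 downregulated, where 30.9% of all tested genes passed, 24.9% higher. Aebp2 rose from 4.79, 4.87 and 5.00 to 5.33, 5.44 and 5.66 (log2 fold change 0.59, SE 0.09, limma adjusted p = 9.4e-05), Eed from 6.97, 6.96 and 6.90 to 7.20, 7.24 and 7.23 (0.28, SE 0.04, limma adjusted p = 1.7e-05), and Mtf2 from 7.48, 7.60 and 7.69 to 7.81, 8.01 and 8.03 (0.36, SE 0.07, limma adjusted p = 4.7e-04). The groups did not overlap for any of the 3, and for 5 of all 10 subunits, as for 48.4% of all tested genes.

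As deposited, all 10 log2 fold changes were above 0 (6 of 10 with median of ratios scaling), with a median of 0.24, beside 0.13 over all tested genes. This is also the comparison with the largest length difference, 0.33 between the medians of long and short transcripts. Removing the length trend left Aebp2 at 0.31, Eed at 0.23 and Mtf2 at 0.18, all called, brought Jarid2 from 0.35 to -0.00 and gave Rbbp4 a call in the other direction (-0.15, limma adjusted p = 2.7e-03, against 0.07 as deposited). With median of ratios scaling Ezh2, Ezh1, Rbbp4 and Rbbp7 were below 0, none called, and Eed no longer passed (0.12, limma adjusted p = 0.010). Without si-Rsl24d1 replicate 1, the library of its group with a length tilt of -0.11 against 0.20 and 0.22 in the other two, 6 subunits passed in place of 3. Marker transcripts differed between the groups as well. The summed TPM of 5 fibroblast markers, Col1a1 and Col3a1 among them, was 50.8 to 54.1 in si-CTL and 127 to 184 in si-Rsl24d1 cells. That of 6 primitive endoderm markers was 14.8 to 19.4 and 29.6 to 37.2. The mesoderm sum was 9.01 to 9.18 and 18.6 to 21.7, and the trophoblast sum 41.2 to 41.9 and 51.4 to 64.3. The neural progenitor sum was 18.9 to 20.7 and 24.8 to 33.8. Only the pluripotency sum was lower in si-Rsl24d1 cells, at 5959 to 6748 against 6853 to 7021. Neither a different mix of cells nor the part of these markers in the result was tested.

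With rescue at day 4, Ezh1 (-0.27, SE 0.07, limma adjusted p = 9.7e-03) and Rbbp7 (-0.21, SE 0.04, limma adjusted p = 1.5e-03) were downregulated, where 5.87% of tested genes passed, 3.53% lower. With median of ratios scaling and with the length trend removed, Ezh1 lost its call (-0.22 in each, limma adjusted p = 0.015 in each), while Eed, at 0.13 as deposited (adjusted p = 0.026), was called higher (0.18 and 0.17, adjusted p = 1.9e-03 and 6.5e-04). Ezh1 also lost its call without any 1 of the 6 libraries, and Rbbp7 lost it without si-CTL replicate 2 (-0.20, adjusted p = 0.011). The rescued si-Rsl24d1 libraries of Rbbp7 were almost equal, at 8.41, 8.41 and 8.41, and it was also the subunit that passed against unrescued si-Rsl24d1 cells (-0.24, SE 0.04, limma adjusted p = 5.6e-04), a comparison in which 5.17% of genes passed, 4.23% lower. In si-CTL cells Mtf2 was higher with rescue by 0.40 (SE 0.07, limma adjusted p = 1.5e-03) and Suz12 by 0.34 (SE 0.08, limma adjusted p = 6.6e-03). In this comparison 10.2% of tested genes passed, 8.85% higher, and Rsl24d1 itself did not pass (0.27, limma adjusted p = 0.011). Doxycycline, the transgene and, by the empty vector label, possibly the cell population differ together, so their parts cannot be told apart. The length difference there was 0.29, and Suz12 did not pass with the trend removed (0.16, adjusted p = 0.016). Suz12 also lost its call without replicate 1 or 2 of the cells without rescue or replicate 1 or 3 of those with it, and Mtf2 without replicate 1 of either group.

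The change of the siRNA effect between the days was tested as an interaction without rescue. It passed for 6 of 10 subunits, all in the positive direction, where 30.9% of all tested genes passed, 22.1% in that direction. Phf19 (0.85, SE 0.17, limma adjusted p = 5.8e-04) and Jarid2 (0.85, SE 0.15, adjusted p = 1.7e-04) had the largest values, followed by Eed (0.55, SE 0.05, adjusted p = 1.6e-07), Mtf2 (0.54, SE 0.10, adjusted p = 2.0e-04), Suz12 (0.50, SE 0.11, adjusted p = 1.7e-03) and Ezh2 (0.33, SE 0.08, adjusted p = 2.8e-03). Rbbp7 was the lowest at -0.03 (SE 0.06). The length difference was 0.31 here. With the length trend removed, Phf19 was at 0.68, Jarid2 at 0.54, Eed at 0.48, Mtf2 at 0.36 and Suz12 at 0.30, all still called, and Ezh2 at 0.21 was not (limma adjusted p = 0.016). Median of ratios scaling left the same 5 called and Ezh2 at 0.17 not, and gave Rbbp7 a call in the negative direction (-0.20, limma adjusted p = 6.0e-04). Ezh2 also lost its call without day 0 si-CTL replicate 1 (0.28, limma adjusted p = 0.0105). The interaction shares its 4 groups with the comparisons on each day and is not separate evidence of them.

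**Figure D5:**
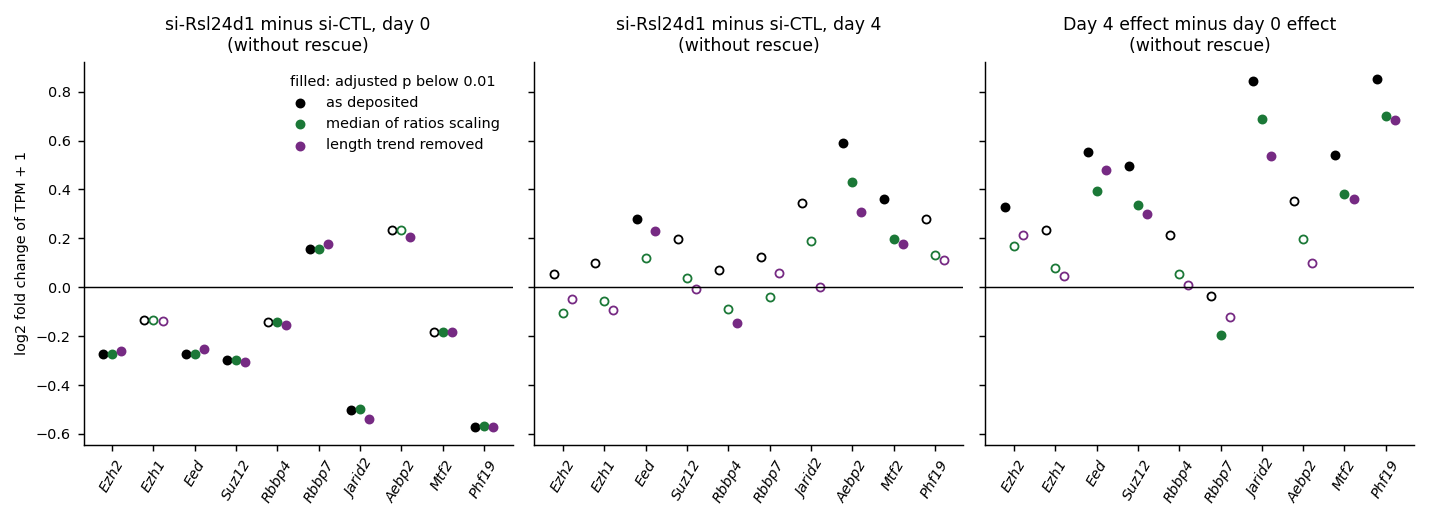
Log2 fold changes of TPM + 1 without rescue for the siRNA effect at day 0 (left), at day 4 (middle) and the difference of the effects (right), as deposited (black), after median of ratios scaling (green) and with the trend on transcript length removed (purple); filled points have an adjusted p below 0.01 from limma. The day 0 values of Eed, Ezh2, Suz12, Jarid2 and Phf19 hardly move between the 3 treatments of the data, whereas at day 4 Jarid2 goes from 0.35 to -0.00 and Aebp2 from 0.59 to 0.31.

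Further partners of the complex were read gene by gene. Epop, a PRC2.1 partner that links the complex to elongin, had the clearest pattern. It fell from 7.79, 7.76 and 7.67 to 7.04, 7.02 and 6.93 on Rsl24d1 depletion at day 0 (log2 fold change -0.74, SE 0.08, limma adjusted p = 1.6e-07). In contrast to the 10 subunits it was higher with rescue in si-Rsl24d1 cells (0.36, limma adjusted p = 2.2e-03). Its siRNA effects with and without rescue differed (0.64, SE 0.11, limma adjusted p = 1.4e-03). In si-CTL cells it was lower with rescue without passing (-0.29, limma adjusted p = 0.025), and this enters the difference. Epop in rescued si-Rsl24d1 cells was at 76.3% of the TPM of day 0 si-CTL cells without rescue. At day 4 it was at 5.46, 5.41 and 5.44 in si-CTL cells, 19.9% of the day 0 TPM, and it fell in all 4 day comparisons, by 2.31 to 1.15.

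Ezhip, an inhibitor of PRC2 that is listed under its older symbol AU022751, was low (1.71, 1.97 and 1.64 TPM in day 0 si-CTL cells) and rose with RA to 5.84, 4.59 and 5.01 TPM (log2 fold change 1.15, SE 0.11, limma adjusted p = 1.5e-08). At day 4 it was lower in si-Rsl24d1 than in si-CTL cells without rescue (-0.47, SE 0.11, adjusted p = 1.9e-03). Phf1, the third Polycomb-like subunit, passed in 1 comparison, the day effect in si-CTL cells with rescue (0.29, adjusted p = 1.0e-03). The H3K27 demethylase genes Kdm6a and Kdm6b did not pass on depletion at day 0 (0.10 and 0.36, limma adjusted p = 0.47 and 0.023) and were higher at day 4 in si-Rsl24d1 cells without rescue (0.48 and 0.77, adjusted p = 1.1e-03 and 6.6e-05). Lcor and Lcorl, PRC2.1 partners, rose in that same comparison (0.66 and 0.41, adjusted p = 5.7e-04 and 5.2e-03). In all, 5 of these 7 genes were upregulated there and 1 downregulated, beside 24.9% of all tested genes upregulated. That comparison had the strongest length difference, and the length trend was not removed for these genes. With rescue in both groups, 0 of the 7 passed for the siRNA at day 4 (Lcor -0.07, Lcorl -0.24, Kdm6a -0.02, Kdm6b 0.17). In day 4 si-CTL cells Lcor, Lcorl and Kdm6a were higher with rescue (0.55, 0.57 and 0.43, limma adjusted p = 6.4e-03, 2.2e-03 and 6.3e-03). Of all tested genes, 8.85% passed as higher there.

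Of 30 developmental genes known as PRC2 targets in ESCs, 12 were too low to be tested. On depletion at day 0 without rescue, 3 of the 18 tested were upregulated and 4 downregulated, beside 14.3% and 16.1% of all tested genes, and their median log2 fold change was 0.10 against -0.01 over all tested genes. Otx2 (0.71) and Hand1 (0.47) were among those that rose. Bmp4 (-0.97), T (-0.81) and Pax6 (-0.78) had the largest falls. At day 4, 9 of 18 were upregulated and 0 downregulated in si-Rsl24d1 cells without rescue, led by Hand1 (1.13) and Gata6 (0.99). In this comparison 24.9% of all tested genes were upregulated and the length difference was 0.33. The filter took the mean over all 24 libraries, so a target silent in most groups was tested only if other groups expressed it. Counts over the 18 are therefore not shares of all 30. Gata4, Gata6, Sox17, Hand1, Cdx2, Eomes, T and Pax6 are also among the lineage markers that were used to describe the cells.

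Apart from the group means, the 10 subunits varied together from library to library. Over the 45 pairs, the Pearson correlation of deviations from the group means ranged from 0.07 (Ezh1 with Ezh2) to 0.95 (Suz12 with Mtf2), with a median of 0.60, over 24 libraries that share their scaling and the length tilt. The tested genes with profiles most like the mean of Ezh2, Eed and Suz12 over the 24 libraries were Ppp1r15b (r = 0.98), Enah (r = 0.98), Nf2, Dbf4 and Larp1 (r = 0.97 each). Those most like Ezh1 were Pttg1ip, Add3, Hk1 and Pfkm (r = 0.98 each) and Dazap2 (r = 0.97).

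The assignment of reads to these genes could be blurred by copies. The transcripts of Ezh1 and Ezh2 share 0 sequence words of 31 bases, and so do those of Rbbp4 and Rbbp7, so the ratios between paralogs do not rest on reads that fit both. Words shared with other annotated genes made up 22.0% of all words of Rbbp4, 16.5% of Rbbp7 and 7.61% of Eed, and between 0 (Phf19) and 6.42% (Mtf2) of the others. The genes that shared most were predicted genes such as Gm26722 for Rbbp4 and Gm6382 for Rbbp7, so the levels of Rbbp4 and Rbbp7 carry this uncertainty.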

How the data were processed

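RNA-seq covered 8 groups of CGR8 ESCs with 3 libraries each, 24 in all. The authors deposited 1 table of log2(TPM + 1) values per gene, with STAR 2.7.8a and Salmon 1.4.0 named in their processing notes. The table holds no read counts, so no count model was used and no depth or counting interval can be given. Genes with a mean of at least 0.5 over the 24 libraries (16447) were tested in limma 3.58.1 (R 4.3.3) with 8 group means and a trended prior, two-sided, with Benjamini-Hochberg adjustment over all of them and a threshold of 0.01. Ratios were compared with exact permutation tests (Python 3.11.15), adjusted over 6 tests with a threshold of 0.05. Scripts were tested on simulated data.

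All 10 members were named in every comparison, with 7 fixed partner genes, up to 3 PRC2 targets per direction and the 5 genes most like the core mean or Ezh1. Members and lists were chosen with earlier results of these data known. Alternatives changed the value added to the TPM, the filter, the scaling, the groups fitted, the replicate block and the libraries. Samples are described as independent, but the labels do not tie them to cultures, so p-values measure the spread between these samples. The values of 1 gene of the target list are not reported here.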

Additional observations from a re-analysis of the deposited data

Results flagged for a closer look

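For 6 subunits the siRNA effect without rescue differed between day 0 and day 4 by a direct test of the difference (limma, adjusted p below 0.01, 3 libraries in each of 4 groups). The day 4 effect minus the day 0 effect was 0.33 for Ezh2, 0.55 for Eed, 0.50 for Suz12, 0.85 for Jarid2, 0.54 for Mtf2 and 0.85 for Phf19 on the log2 scale. As deposited, the effect was negative at day 0 and positive at day 4 for each of the 6. With median of ratios scaling Ezh2 was negative at both days, and with the length trend removed so were Ezh2, Suz12 and Jarid2. Rsl24d1 itself was lower at day 0, and at day 4 it was at -0.04 as deposited, which did not pass, and at -0.20 with median of ratios scaling, which did (limma adjusted p = 3.2e-03). The sums of all lineage markers examined were higher in day 4 si-Rsl24d1 cells without rescue, and that of the pluripotency markers was lower. The part of these markers and of transcript length was not tested.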

How the results depend on the processing

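Of 2220 values of single members under alternatives, 2102 kept their side of the threshold (72 of them changed sign with neither value called), 79 lost the call, 38 gained one and 1 reversed: Rbbp4 in the siRNA effect at day 4 without rescue was -0.15 with the length trend removed, an alternative chosen after seeing the data. Counts of the 10 subunits called moved as follows. The siRNA effect at day 0 with rescue went from 2 to 1 with no filter, 5 with median of ratios scaling, 6 with the length trend removed and 0 with only the groups compared. The siRNA effect at day 4 with rescue went from 2 to 1 with 0.1 added to the TPM, with no filter, with the replicate block and with only the groups compared. The rescue effect in si-CTL cells at day 4 went from 2 to 1 with no filter, the replicate block, the length trend removed and only the groups compared. The rescue effect in si-Rsl24d1 cells went from 1 to 0 at day 0 with median of ratios scaling and with only the groups compared, and from 1 to 0 at day 4 with the latter. With only the groups compared, which leaves fewer samples to estimate the spread, the siRNA effect without rescue went from 6 to 3 at day 0 and from 3 to 1 at day 4. At day 0 it rose from 6 to 8 with median of ratios scaling and to 9 with the length trend removed. Otherwise the cause was not tested.

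Leaving out 1 library gave 4 to 6 calls for the siRNA effect at day 0 without rescue and 1 to 2 with rescue, 3 to 6 at day 4 without rescue (6 without si-Rsl24d1 replicate 1) and 0 to 1 with rescue. The rescue effect had 0 to 1 calls in si-Rsl24d1 cells at day 0 (0 without rescued replicate 1) and 1 to 2 at day 4 (2 without unrescued replicate 1), and 0 to 2 in si-CTL cells at day 4. The siRNA effect on the Rbbp4 to Rbbp7 ratio ran from -0.090 to -0.069 and passed at -0.090 (adjusted p = 0.041, exact permutation test) without day 4 si-Rsl24d1 replicate 3 without rescue.

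Replicate numbers did not pair the samples: the mean correlation of deviations was -0.017 over 84 same-number and 0.0087 over 168 different-number pairs, and 1 library correlated best with its own number. With the replicate block Ezh1 (siRNA effect at day 4 with rescue), Suz12 (rescue effect in si-CTL cells at day 4) and Aebp2 (day effect in si-Rsl24d1 cells without rescue) lost their calls, and the day effects on the ratios kept their values. Depth is unknown, so how far counting error limits Phf19, the lowest member, cannot be given.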
